A study of Mus musculus with 4 samples.

Results

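The 7 genes described here encode 2 subunits of the sodium pump, 4 aquaporins and a scaffold of membrane transporters, and were put together for the known part of pumps and water channels in forming the cavity of the mouse blastocyst. They are Atp1b1, Atp1b3, Aqp3, Aqp8, Aqp9, Aqp11 and Slc9a3r1, chosen by symbol out of 20171 genes in the gene table. Their 34 transcript isoforms were taken out of 68012 in the isoform table. Full-length cDNA of single oocytes, zygotes, blastomeres and mouse embryonic stem cells (mESC) carried cell barcodes and unique molecular identifiers (UMIs) and was sequenced as PacBio long reads, and the question put to these genes is when and in which transcript form each of them is present from oocyte to blastocyst. The tables hold 121 cells that name their embryo and 40 that do not, from 3 sequencing runs, with between 4985 and 389775 UMIs per cell (median 38914), and a 4th run holds intact oocytes and 1/2 and 1/4 oocytes.

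All females were superovulated: they received pregnant mare serum gonadotropin (PMSG) and later human chorionic gonadotropin (hCG), from which the hours are counted. Oocytes were collected 20 hours after hCG from C57BL/6J females of 6 to 8 weeks, and the zygotes and embryos came from matings of such females, which the methods pair with DBA/2NCrl males and the labels with DBA/2J. Zygotes were taken at 22 to 24 hours, early 2-cell (E2C) embryos at 30 to 32 hours, late 2-cell (L2C) embryos at 46 to 48 hours, 4-cell embryos at 54 to 56 hours and 8-cell embryos at 68 to 70 hours. The 16-cell and 32-cell blastomeres were taken at 78 to 80 hours and the blastocyst cells at 88 to 90 hours. No mutation is named for any group. The mESC were cells of 1 line, E14 Tg2A. Oocytes (10), zygotes (9) and the embryos named in the cell labels served as replicates, and these embryos numbered 5 at E2C, 6 at L2C, 5 at 4-cell, 4 at 8-cell and 4 at 16-cell. The 22 32-cell blastomeres, 13 blastocyst cells and 5 mESC name no embryo and are given as ranges and medians over cells, without a test.

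The blastocyst cavity forms when the outer cells, the trophectoderm, pump sodium to their basal side and water follows. The pump is the Na,K-ATPase, which needs a beta subunit to reach the membrane, and Atp1b1 and Atp1b3 encode the beta subunits beta1 and beta3. Aquaporins are membrane channels for water, and some of them, Aqp3 and Aqp9 among them, also pass glycerol and other small solutes. Slc9a3r1 encodes NHERF1, a scaffold that ties the sodium-proton exchanger NHE3 and other membrane proteins to ezrin and the actin cortex.

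Values are copies per 100,000 UMIs of a cell, averaged over the cells of an embryo. A UMI stands for 1 captured molecule, and 1 UMI was worth between 0.406 copies in the zygote of median depth and 4.40 copies in the mESC of median depth. Adjacent stages were compared with limma on log2(copies + 1) in 1 fit over 11682 genes, without a term for the sequencing run. The run of the named embryos from E2C on was not known here. Run and stage can therefore not be told apart in any comparison that includes these embryos. A gene was called changed when its log2 fold change was over 1 in size and its unadjusted p under 0.01, and the adjusted p given beside it is limma's Benjamini-Hochberg value over all genes tested. On this scale the fold change of a gene near 0 copies is understated, and errors are standard errors (SE) of the fit.

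The sequences that bear on the 2 aquaporins with the steepest changes and on the aquaporin with more than 1 first exon are the 300 bases around their annotated starts, from 250 bases before to 50 bases after, read 5′ to 3′ on the gene's strand from RefSeq (build GRCm38.p6). Capitals mark the TATA box, spelled TATAAA, and the GC box, spelled GGGCGG. They were searched on both strands together with the TEAD site GGAATG, the AP-2 site GCCNNNGGC and the CCAAT box. A GC box and an AP-2 site can overlap.
Aqp3, chr4:41098134-41098433, minus strand: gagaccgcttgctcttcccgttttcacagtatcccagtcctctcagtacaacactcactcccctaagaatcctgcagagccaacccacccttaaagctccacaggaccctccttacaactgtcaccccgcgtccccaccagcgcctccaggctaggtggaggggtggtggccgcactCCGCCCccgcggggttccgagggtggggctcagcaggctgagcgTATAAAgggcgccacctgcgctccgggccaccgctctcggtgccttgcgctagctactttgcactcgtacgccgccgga
Aqp11, chr7:97738198-97738497, minus strand: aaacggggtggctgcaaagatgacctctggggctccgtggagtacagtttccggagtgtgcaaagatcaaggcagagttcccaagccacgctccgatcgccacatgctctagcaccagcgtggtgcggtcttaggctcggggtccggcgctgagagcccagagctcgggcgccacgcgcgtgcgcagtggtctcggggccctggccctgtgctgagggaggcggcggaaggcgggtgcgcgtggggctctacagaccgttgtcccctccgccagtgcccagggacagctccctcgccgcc
Aqp9, chr9:71163240-71163539, minus strand: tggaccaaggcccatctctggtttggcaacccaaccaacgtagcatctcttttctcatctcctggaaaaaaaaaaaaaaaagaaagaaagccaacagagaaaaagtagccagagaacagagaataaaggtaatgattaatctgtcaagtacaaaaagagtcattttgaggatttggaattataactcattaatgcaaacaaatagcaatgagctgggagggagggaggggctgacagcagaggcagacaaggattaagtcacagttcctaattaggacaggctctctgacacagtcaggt

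The Aqp3 window held 1 TATA box and 1 GC box and was 64% G and C. The Aqp11 window held none of the 5 motifs at 68% G and C, and the Aqp9 window held none at 41.3%. Of 32851 promoter windows of the same length, 13.6% held TATAAA, 35.7% GGGCGG, 14.7% GGAATG, 16.6% GCCNNNGGC and 37.4% CCAAT. These matches are letters in a window and show no binding.

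Of the 7 genes, 6 passed the filter on low values (at least 1 copy in at least 4 embryos) and Aqp8 did not. Over the 36 comparisons of these 6 genes with the preceding stage, 5 were called higher and 4 lower, and in 5 of these 9 the embryos of the 2 stages did not overlap. Over all genes and the same 6 steps, the embryos did not overlap in 46.6% of the calls and in 7.83% of all comparisons. From oocyte to zygote none of the 6 was called, where 2.92% of all genes tested were called higher and 0.325% lower. From zygote to E2C 2 were higher and 1 lower, beside 4.52% and 2.75% of all genes. From E2C to L2C, when the embryonic genome is broadly activated, 2 were higher and none lower, beside 25.6% and 22.8%. From L2C to 4-cell none was called, beside 2.41% and 4.28%. From 4-cell to 8-cell 1 was higher and 3 were lower, beside 4.47% and 10.5%, and from 8-cell to 16-cell none was called, beside 1.9% and 1.46%.

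**Figure D1:**
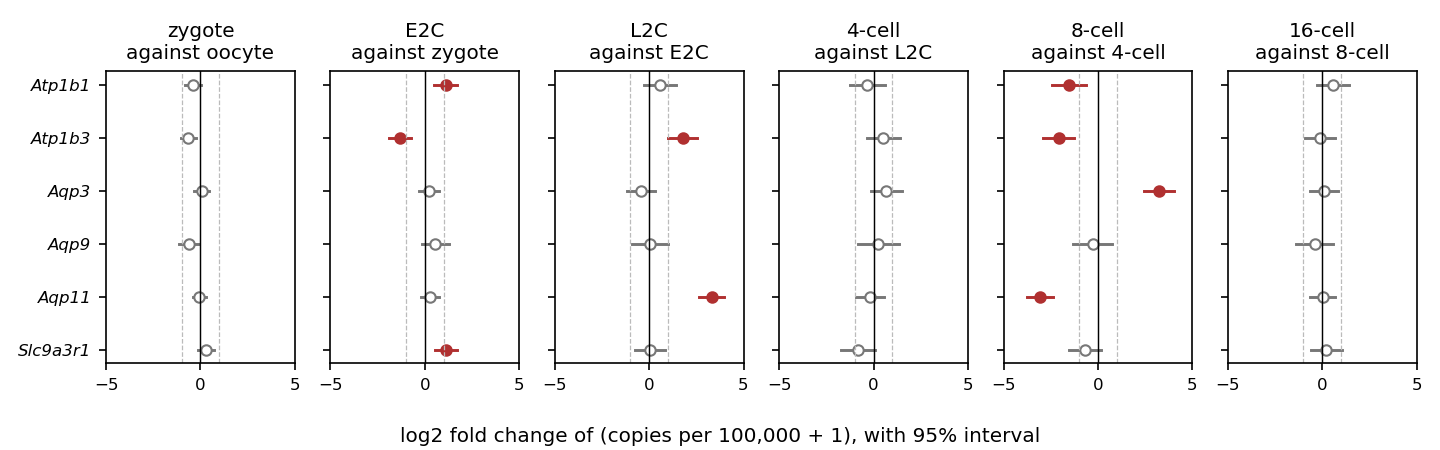
Log2 fold change of copies per 100,000 UMIs plus 1 between adjacent stages for the 6 genes tested, 1 panel for each comparison, with 95% intervals from the fit. Filled red points are the 9 calls, open points were not called, dashed lines mark a log2 fold change of 1 in either direction, and 4 of the 9 calls stand in the 8-cell panel.

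Aqp3, a channel for water and glycerol, was close to 0 copies up to the 4-cell stage and present in all embryos from the 8-cell stage on. The 5 4-cell embryos held 0, 0, 0, 1.82 and 0.622 copies of Aqp3. The 4 8-cell embryos held 12.3, 10.0, 12.2 and 23.7 copies. Every 8-cell embryo lay above every 4-cell embryo, and the log2 fold change was 3.24 (SE 0.39, limma adjusted p = 8.08e-09).

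Counted as pooled UMIs, Aqp3 rose from 4 UMIs at the 4-cell stage to 128 at the 8-cell stage. That is 21.4 times more at equal depth (95% interval 8.15 to 79.7, counting error only). At L2C no Aqp3 UMI was seen in 11 cells, which allows up to 0.500 copies and a share of up to 27.3% of cells with a UMI. The oocytes held 0.143 ± 0.234 copies (SD, n = 10), the zygotes 0.192 ± 0.326 (SD, n = 9) and the E2C embryos 0.465 ± 0.801 (SD, n = 5).

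The 16-cell embryos held 12.7, 10.1, 47.6 and 15.3 copies of Aqp3. They overlapped the 8-cell embryos, and the difference between these stages was 0.09 on the log2 scale (SE 0.37, 95% interval -0.64 to 0.83). In 32-cell blastomeres the values ran from 0 to 30.8 with a median of 13.1, and in blastocyst cells from 4.65 to 33.5 with a median of 9.75. The mESC gave 2 UMIs in 2 of 5 cells.

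Nearly every cell carried Aqp3 from the 8-cell stage on. A UMI was seen in 24 of 26 8-cell blastomeres (92.3%), 35 of 38 at 16-cell (92.1%), 20 of 22 at 32-cell (90.9%) and 13 of 13 blastocyst cells. The L2C blastomeres, which carried none, were the deeper cells, with a median of 58097 UMIs against 33030 at the 8-cell stage. Within embryos the cells spread widely: the 7 cells of 16-cell embryo 3 ran from 10.1 to 106 copies and the 15 cells of 16-cell embryo 2 from 0 to 21.1. The highest cell of an 8-cell embryo held between 19.0 and 50.7 copies, and in 3 of the 4 16-cell embryos the lowest cell was at 0.

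**Figure D2:**
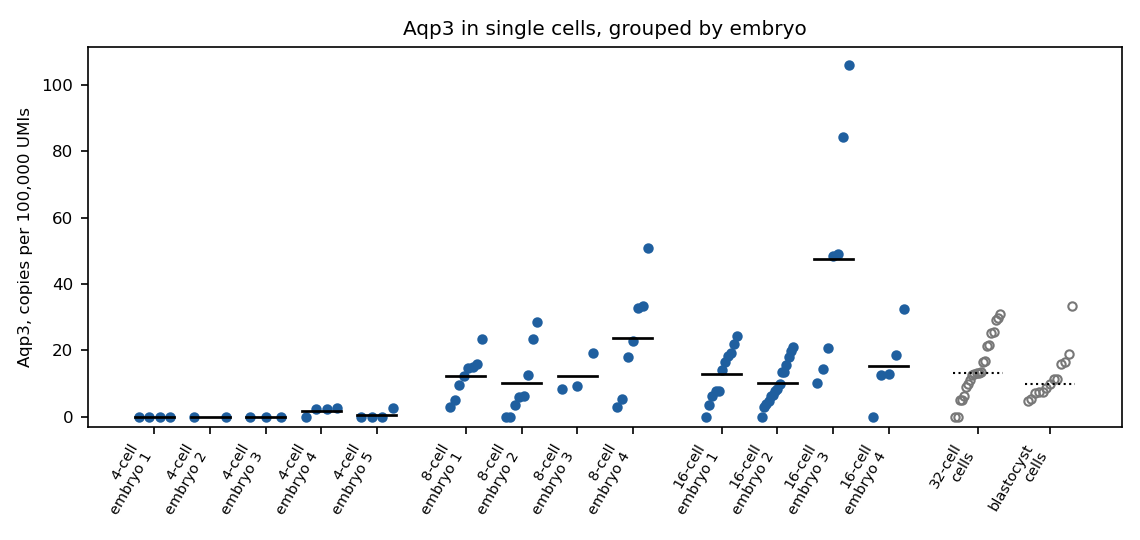
Aqp3 in single cells in copies per 100,000 UMIs, grouped by embryo for the 4-cell, 8-cell and 16-cell stages (filled, bar at the embryo mean) and pooled for 32-cell and blastocyst cells (open, dotted line at the median). The 4-cell embryos lie at or near 0, the 8-cell embryo means lie between 10.0 and 23.7, and 16-cell embryo 3 holds the 2 highest cells.

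Among UMIs with a listed isoform, the rise of Aqp3 lay in 1 isoform. Of the Aqp3 UMIs, 60.9% at the 8-cell stage and 56.3% at the 16-cell stage carried a listed isoform. PB.50961.3, a full match to the annotated transcript, begins at the annotated start of the window printed above and ends 816 bases after the stop codon. It held 71 of the 78 Aqp3 isoform UMIs at the 8-cell stage (91.0%) and 84 of 94 at the 16-cell stage (89.4%). It rose from 0.433 to 8.35 copies from 4-cell to 8-cell, in the isoform table's own copies per 100,000 (log2 fold change 2.23, SE 0.42, limma adjusted p over 29409 isoforms = 0.000208), with no overlap between embryos, beside 3.63% of all isoforms called higher. The 8-cell mean rests on embryo 4, at 20.9 copies where the other 3 held 3.88 to 4.34, and without it the mean was 4.15 and the log2 fold change 1.72, still called. The other 4 Aqp3 isoforms begin inside the gene, lack the start codon and end close to the same place.

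Aqp11, an aquaporin of intracellular membranes, appeared for a short window only. The 5 E2C embryos held 0.547, 0, 0, 0.551 and 0 copies. The 6 L2C embryos held 16.7, 9.94, 15.4, 11.8, 8.93 and 9.67 copies. All L2C embryos lay above all E2C embryos, and the log2 fold change was 3.31 (SE 0.33, limma adjusted p = 4.16e-13).

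The 4-cell embryos held 6.29, 29.9, 6.60, 8.40 and 13.2 copies of Aqp11, and overlapped L2C. At the 8-cell stage the values were 0, 0.773, 0 and 0.395. No 8-cell embryo reached a 4-cell embryo, and Aqp11 fell by 3.06 on the log2 scale (SE 0.35, limma adjusted p = 2.15e-09).

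In pooled UMIs the rise of Aqp11 was from 2 to 66, or 46.7 times at equal depth (95% interval 12.4 to 394), and the fall from 52 to 2, or 38.9 times (10.2 to 330). The 16-cell embryos held 0.159, 0, 0 and 3.26 copies, the last from 3 UMIs in 3 of 5 cells. No UMI was seen in 22 32-cell blastomeres, which allows up to 0.393 copies, in 13 blastocyst cells (up to 0.495 copies) or in 5 mESC (up to 2.90 copies). In the zygotes, with no UMI in 9 cells, the limit was 0.123 copies. All 11 L2C blastomeres and 14 of 17 4-cell blastomeres carried a UMI, against 2 of 26 at the 8-cell stage.

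Aqp11 was read almost wholly as 1 isoform, PB.68265.3, with 3 exons and the start codon, which held 50 of 56 isoform UMIs at L2C (89.3%) and 44 of 48 at the 4-cell stage (91.7%). It begins 170 bases inside the RefSeq start, so that the window printed above ends before its first base. It rose from E2C to L2C by 3.17 on the log2 scale (SE 0.37, limma adjusted p = 4.66e-10), beside 12.9% of all isoforms called higher. It fell by 3.35 from 4-cell to 8-cell (SE 0.37, limma adjusted p = 3.12e-09), beside 4.3% of all isoforms called lower. The shorter isoform PB.68265.8 ends 8 bases after the stop codon and was also called higher at L2C, by 1.05 (SE 0.26, limma adjusted p = 0.00127), on 6 UMIs. That call was lost with a pseudocount of 5, without array weights, with a filter of 1 UMI and in DESeq2.

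The last 30 bases of the 2 Aqp11 isoforms, read from the annotated transcript on GRCm38, show that both ends follow a poly(A) signal (AATAAA or ATTAAA, in capitals).
PB.68265.3, chr7:97726374-97726403, minus strand: cattcATTAAAcatctacctatcccaagtc
PB.68265.8, chr7:97726617-97726646, minus strand: aatgactAATAAAaaagagtaaccactccc

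**Figure D3:**
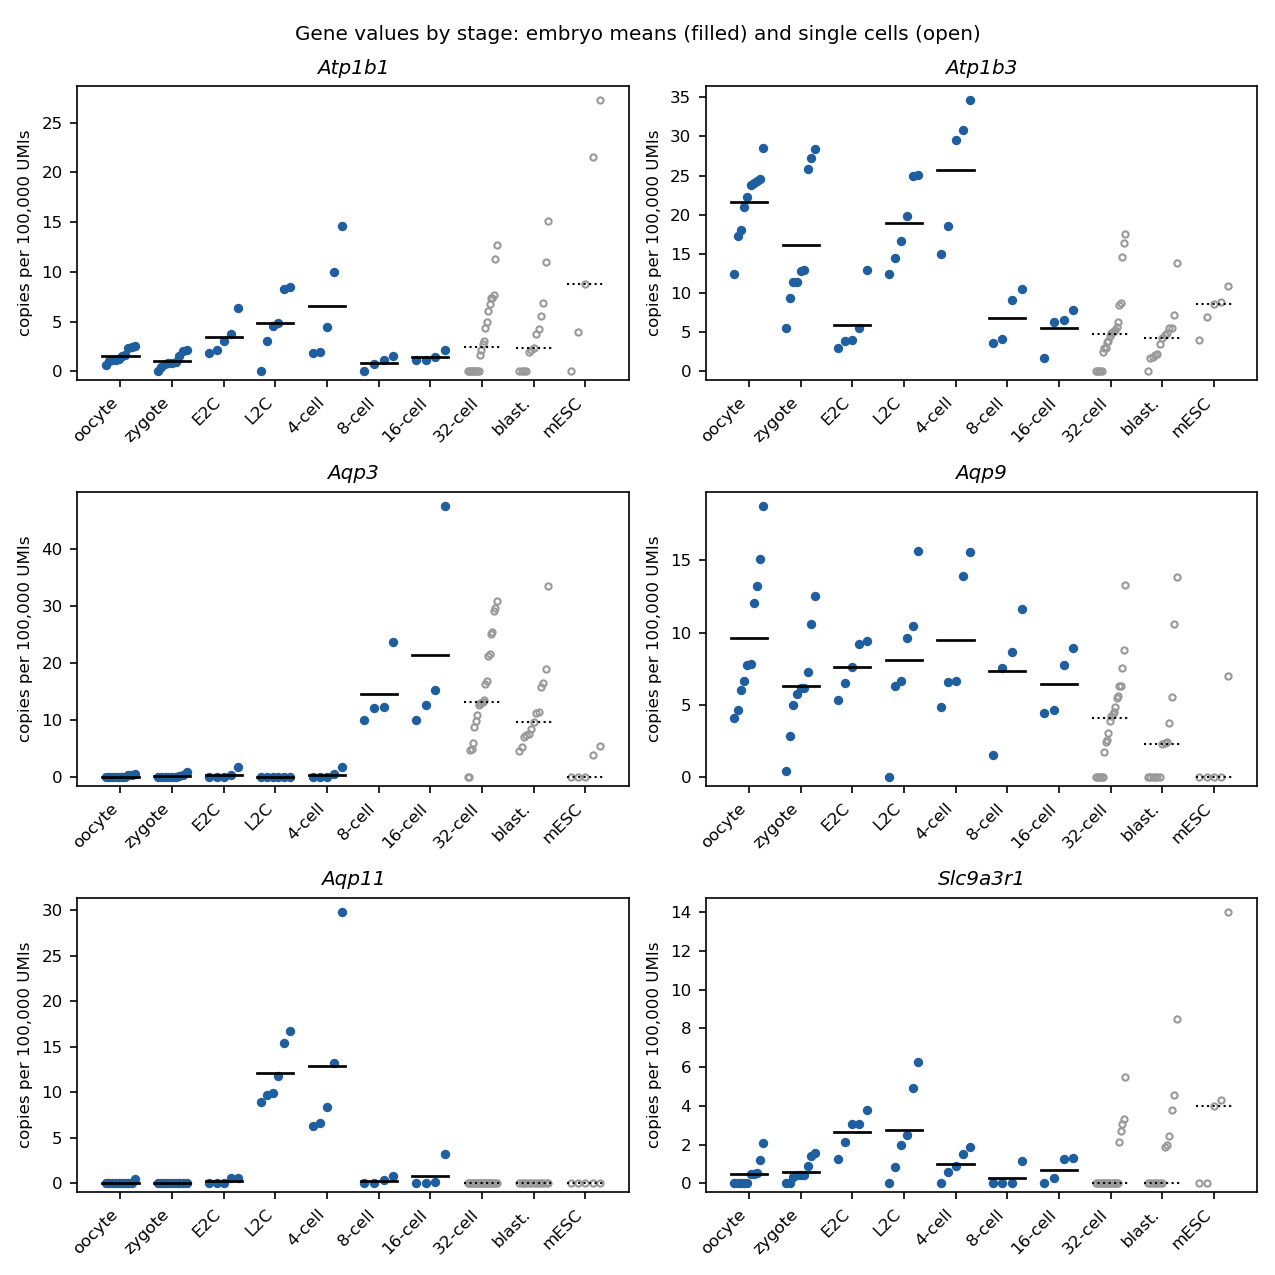
Copies per 100,000 UMIs of 6 of the genes at each stage. Filled points are oocytes, zygotes or embryo means with a bar at the stage mean, and open points are single 32-cell, blastocyst (blast.) and mESC cells with a dotted line at the median. Aqp3 stands above 10 copies in every 8-cell and 16-cell embryo, and Aqp11 above 6 copies in every L2C and 4-cell embryo.

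Aqp9, an aquaporin that also passes glycerol and urea, was present at every stage up to the blastocyst and was called in none of the 6 comparisons. Its stage means were 9.64 ± 4.89 copies in oocytes (SD, n = 10), 6.32 ± 3.65 in zygotes (n = 9), 7.64 ± 1.74 at E2C (n = 5) and 8.12 ± 5.21 at L2C (n = 6). They were 9.52 ± 4.85 at the 4-cell stage (n = 5), 7.37 ± 4.23 at the 8-cell stage (n = 4) and 6.46 ± 2.24 at the 16-cell stage (n = 4). Oocytes ran from 4.13 to 18.8 and 16-cell embryos from 4.46 to 8.94, so that all stages overlapped.

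The largest difference of Aqp9 between neighbours was from oocyte to zygote, a log2 fold change of -0.63 (95% interval -1.14 to -0.12, limma adjusted p = 0.0923). With the run as a block it was -0.60 (adjusted p = 0.0480), still under the limit of 1. Oocytes of run 1 held 4.13 to 7.80 copies and those of run 3 7.85 to 18.8. From 4-cell to 8-cell the 95% interval of the difference was -1.32 to 0.76. Cells without an embryo name had medians of 4.09 at 32-cell and 2.29 in the blastocyst, and 1 of 5 mESC held 1 UMI.

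In runs 1 to 3, most Aqp9 isoform UMIs of oocytes and zygotes began in an unannotated exon, and most of those from the 4-cell to the 16-cell stage in the annotated first exon. The isoform table held 48.2% of the Aqp9 UMIs of oocytes and 39.3% of those of zygotes, so these shares leave out the rest. Isoforms PB.76691.2, PB.76691.7 and PB.76691.11 begin in an exon that overlaps no annotated exon, inside the first intron. They begin between 15484 and 15536 bases downstream of the nearest RefSeq start, at chr9:71162633. That start is not the one of the Aqp9 window printed above, which lies farther upstream at chr9:71163289. The first exon of PB.76691.2 spans chr9:71146927-71147149 on mm10, and none of these 3 isoforms holds the annotated start codon. Isoforms PB.76691.5, PB.76691.56 and PB.76691.73 begin within 17 bases of the annotated start, inside the Aqp9 window printed above, and hold the start codon. The remaining 5 isoforms begin farther downstream.

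The unannotated first exon was read in 79 of 93 Aqp9 isoform UMIs of oocytes (84.9%, exact 95% interval 76.0 to 91.5). In zygotes it was 50 of 64 (78.1%, 66.0 to 87.5), at E2C 8 of 14 (57.1%, 28.9 to 82.3) and at L2C 2 of 13 (15.4%, 1.92 to 45.4). It was read in 0 of 24 at the 4-cell stage (0 to 14.2%), 1 of 24 at the 8-cell stage and 0 of 32 at the 16-cell stage (0 to 10.9%). The annotated first exon held 1 of 93 UMIs in oocytes and 1 of 64 in zygotes. It then held 14.3% at E2C, 38.5% at L2C, 83.3% at the 4-cell stage, 87.5% at the 8-cell stage and 93.8% at the 16-cell stage. The intervals cover counting error only. The intact oocytes of the 4th run gave other shares, 44.8% in the unannotated first exon and 15.6% in the annotated one. Isoforms that begin farther downstream held 39.6% there, against 14.0% in oocytes of runs 1 to 3. For the annotated first exon the 4th run listed 1 isoform, where runs 1 to 3 listed 3. The isoforms listed for runs 1 to 3 and for the 4th run differ, with 11 and 9 of Aqp9. What part that has in these shares was not tested.

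By embryo, each of the 9 oocytes and 8 zygotes with Aqp9 isoform UMIs held at least 50% and 55.6% of them in the unannotated first exon. The 5 E2C embryos ran from 25% to 100%. Of the 5 L2C embryos 3 held none and 1 held only this exon, and all 3 4-cell and all 3 16-cell embryos with such UMIs held none. These groups of isoforms were formed after their values had been seen, so they are a description without a test. The planned test of isoform shares called no Aqp9 isoform.

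**Figure D4:**
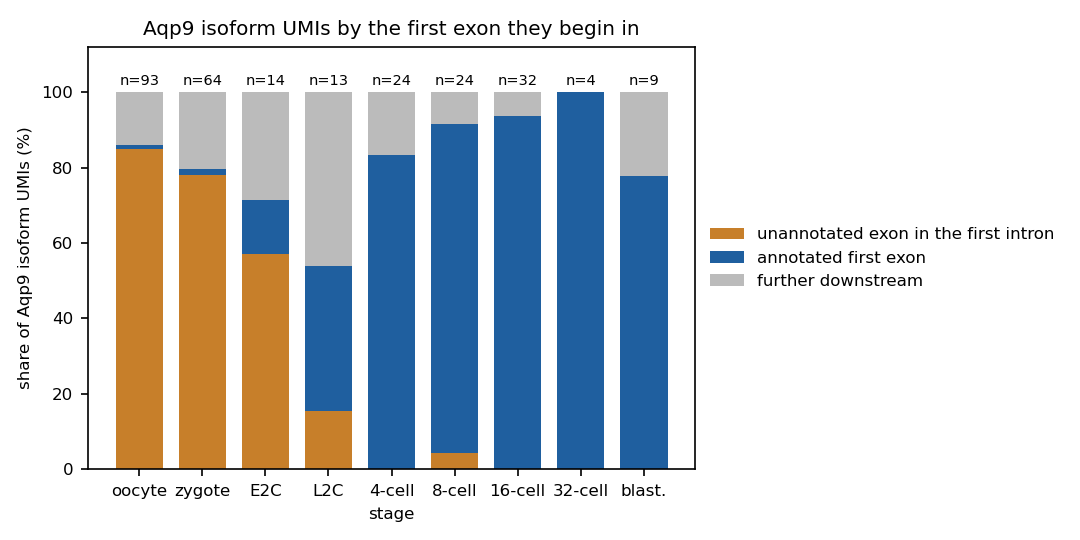
Share of Aqp9 isoform UMIs, in percent, by the exon in which the isoform begins, at each stage from oocyte to blastocyst (blast.), with the number of UMIs above each bar. The unannotated exon in the first intron holds 84.9% in oocytes and 0% at the 4-cell stage, and the annotated first exon 1.08% and 83.3%.

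Of single Aqp9 isoforms only PB.76691.5 was called, higher at the 4-cell stage than at L2C. It held 0.339 copies at L2C and 2.79 at the 4-cell stage (log2 fold change 1.54, SE 0.45, limma adjusted p = 0.0412), beside 2.61% of all isoforms called higher. The embryos of the 2 stages overlapped, and the call was lost without 4-cell embryo 4 (0.81) or embryo 5 (1.23), with a pseudocount of 0.1 (2.67) or 5 (0.68), and in DESeq2 (3.33). The most abundant form of oocytes, PB.76691.2, held 66 of their 93 Aqp9 isoform UMIs (71.0%).

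Aqp8, a channel for water and small solutes, was nearly absent. Over all cells it gave 2 UMIs, 1 in zygote 6 (0.310 copies) and 1 in a blastocyst cell (2.12 copies). No UMI was seen in 38 16-cell blastomeres, which allows up to 0.253 copies, in 26 8-cell blastomeres (up to 0.382) or in 10 oocytes (up to 0.148). No isoform of Aqp8 stood in the isoform table.

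Atp1b3, the beta3 subunit of the Na,K-ATPase, was called at 3 transitions, lower, higher and again lower. The 10 oocytes ran from 12.5 to 28.5 copies with a median of 23.0, and the 9 zygotes from 5.50 to 28.4 with a median of 12.9. The 5 E2C embryos held 5.55, 3.89, 3.06, 4.07 and 12.9 copies, which overlapped the zygotes. From zygote to E2C Atp1b3 fell by 1.31 on the log2 scale (SE 0.28, limma adjusted p = 0.000659).

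The zygotes of Atp1b3 split by sequencing run. The 3 zygotes of run 3 held 25.8 to 28.4 copies, all above the 4 oocytes of that run (17.3 to 24.4). The 4 zygotes of run 1 held 5.50 to 13.0, all below its 5 oocytes (18.0 to 28.5), and the 2 zygotes of run 2 held 9.36 and 11.5, below its single oocyte (12.5). Pooled, the zygote minus oocyte difference was -0.64 (SE 0.21, limma adjusted p = 0.0278), and with the run as a block -0.44 (adjusted p = 0.139). The run of the E2C and later named embryos was not known here. Run and stage can therefore not be told apart in the fall from zygote to E2C or at the later steps. All 5 E2C embryos lay below the zygotes of run 3, and overlapped those of run 1.

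The 6 L2C embryos held 16.7, 24.9, 25.1, 12.5, 19.8 and 14.5 copies of Atp1b3. The rise from E2C was 1.78 on the log2 scale (SE 0.39, limma adjusted p = 9.22e-05), with E2C embryo 5 above the lowest L2C embryo. The 4-cell embryos held 18.6, 14.9, 30.8, 34.7 and 29.5 copies, and the 8-cell embryos 4.13, 3.67, 9.16 and 10.5. Every 8-cell embryo lay below every 4-cell embryo, and Atp1b3 fell by 2.09 (SE 0.42, limma adjusted p = 0.000226). It was at 5.58 ± 2.69 copies at 16-cell (SD, n = 4), and the medians over cells were 4.72 at 32-cell, 4.24 in the blastocyst and 8.61 in mESC.

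Atp1b3 transcripts ended at 2 places in the 3′ part. The farther end lies 846 to 874 bases after the stop codon and the nearer end 474 or 487 bases. The last 30 bases of the main isoform of each, PB.77419.34 and PB.77419.2, and of PB.77419.10, a rarer isoform of the farther end, are given from the annotated transcript on GRCm38, with a poly(A) signal in capitals where there is one.
PB.77419.34 (nearer end), chr9:96333037-96333066, minus strand: aaAATAAAgtggatctgaaagtagactctg
PB.77419.10 (farther end), chr9:96332678-96332707, minus strand: ggaccctAATAAAaacaaattgtgaaatac
PB.77419.2 (farther end), chr9:96332655-96332684, minus strand: gaaatacaaaaacttcaaactgatttaaaa
The windows of PB.77419.10 and PB.77419.2 overlap. PB.77419.2 was read 5 bases past the annotated end, and its window stops there. Neither AATAAA nor ATTAAA stands in that window, as in the last 30 bases of 6 of the 8 isoforms with the farther end.

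Listed isoforms covered 35.6% of the Atp1b3 UMIs in oocytes, 35.7% in zygotes and 27.9% at E2C. They covered 52.2% at L2C, 57.0% at 4-cell, 58.7% at 8-cell and 54.9% at 16-cell, and the shares below leave out the rest. The nearer end of Atp1b3 held 17 of 156 isoform UMIs in oocytes (10.9%, exact 95% interval 6.48 to 16.9) and 20 of 144 in zygotes (13.9%, 8.69 to 20.6). It held 7 of 12 at E2C (58.3%, 27.7 to 84.8), 45 of 60 at L2C (75%, 62.1 to 85.3) and 46 of 85 at the 4-cell stage (54.1%, 43.0 to 65.0). At the 8-cell stage it was 10 of 27 (37.0%) and at the 16-cell stage 13 of 28 (46.4%). By embryo the oocytes ran from 0 to 57.1% and the 6 L2C embryos from 64.3% to 100%. The 2 groups of ends were formed after their values had been seen and are given without a test.

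The 2 main Atp1b3 isoforms were called at different transitions. PB.77419.2, with the farther end, fell from 5.70 copies in zygotes to 0.512 at E2C, by 1.88 on the log2 scale (SE 0.48, limma adjusted p = 0.00722), beside 2.94% of all isoforms called lower. PB.77419.34, with the nearer end, rose from 1.17 copies at E2C to 10.1 at L2C, by 2.27 (SE 0.53, limma adjusted p = 0.000586). It fell from 8.37 at the 4-cell stage to 1.32 at the 8-cell stage, by 2.06 (SE 0.54, limma adjusted p = 0.00809). In none of these 3 comparisons did the embryos overlap. The fall of PB.77419.2 was not called with a pseudocount of 5 (-0.82). The last of them was not called in DESeq2 (-1.89) or with a pseudocount of 0.1 (-2.80).

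**Figure D5:**
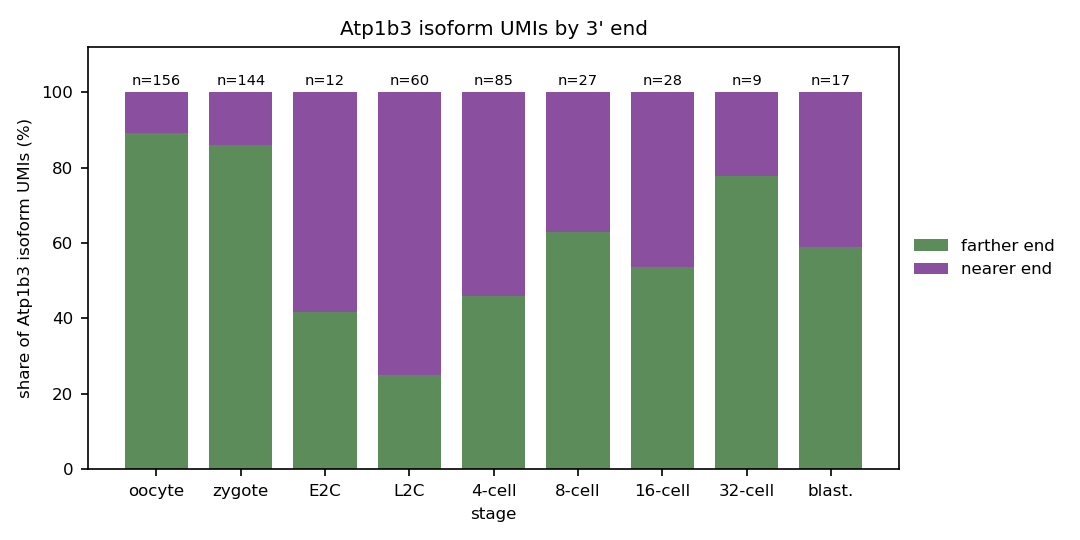
Share of Atp1b3 isoform UMIs, in percent, that end at the farther or at the nearer 3′ end, at each stage from oocyte to blastocyst (blast.), with the number of UMIs above each bar. The nearer end holds 10.9% in oocytes, 75% at L2C and 46.4% at the 16-cell stage.

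Atp1b1, the beta1 subunit, was called higher at E2C and lower at the 8-cell stage. The zygotes ran from 0 to 2.11 copies with a median of 0.847, and the E2C embryos held 3.05, 6.36, 1.90, 2.14 and 3.77. The lowest E2C embryo lay below the highest zygote, and the log2 fold change was 1.10 (SE 0.30, limma adjusted p = 0.00837). This call was lost without E2C embryo 2 (0.91), with a pseudocount of 5 (0.45), in edgeR (1.28) and DESeq2 (1.20) on recovered UMIs, and in the isoform table summed per gene (0.485).

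The L2C embryos held 0, 8.51, 4.54, 4.82, 8.30 and 3.08 copies of Atp1b1, where the 0 came from the single cell of L2C embryo 1. The 4-cell embryos held 1.92, 10.0, 14.6, 1.81 and 4.44, where the 10.0 came from 1 UMI in 1 of 2 cells of embryo 2. At the 8-cell stage the values were 1.13, 0.795, 1.59 and 0, all below the lowest 4-cell embryo. Atp1b1 fell by 1.54 (SE 0.45, limma adjusted p = 0.0115), and without 8-cell embryo 4, the one at 0, the change was -1.23 and not called, nor was it with a pseudocount of 5 (-0.68). The 8-cell values rest on 6 UMIs in 4 of 26 cells.

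The 16-cell embryos held 1.49 ± 0.471 copies of Atp1b1 (SD, n = 4), and the difference from the 8-cell stage was 0.55 (95% interval -0.29 to 1.39). Cells without an embryo name had medians of 2.42 at 32-cell, 2.33 in the blastocyst and 8.80 in mESC, where the highest cell reached 27.3. Over cells, log2(copies + 1) of Atp1b1 was correlated with the mean log2(copies + 1) of 10 trophectoderm markers. The correlation was 0.12 at 8-cell (26 cells), 0.27 at 16-cell (38), 0.36 at 32-cell (22) and 0.59 in the blastocyst (13). With 6 inner cell markers it was -0.16, -0.13, 0.01 and -0.57 at the same stages. For Aqp3 the correlation with the trophectoderm markers was 0.32, 0.06, 0.40 and 0.15, and with the inner cell markers -0.15, -0.08, -0.23 and 0.18. Atp1b3 gave -0.02, 0.27, 0.28 and 0.07 with the trophectoderm markers, and 0.03, -0.17, 0.48 and -0.05 with the inner cell markers. Aqp9 gave 0.19, 0.43, 0.29 and 0.41, and -0.49, 0.28, 0.24 and -0.35. With log10 depth Atp1b1 gave 0.02, 0.20, 0.12 and -0.31. These are descriptions, since the cells share libraries and 1 UMI is worth about 2.11 copies in the blastocyst.

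Atp1b1 too was read with nearer and farther 3′ ends, on few UMIs. PB.4394.23 ends 247 bases after the stop codon and PB.4394.16 465 bases, against 1167 and 1009 for the other 2 isoforms. The nearer ends held 12 of 13 Atp1b1 isoform UMIs at L2C (92.3%) and 14 of 17 at the 4-cell stage (82.4%). They held 3 of 4 in zygotes, 2 of 4 at E2C, 3 of 8 in oocytes, 3 of 8 in the blastocyst and 1 of 11 in mESC. Only 1 Atp1b1 isoform UMI was read at 8-cell, 3 at 16-cell and 2 at 32-cell, all with the farther ends. PB.4394.23 was called higher at L2C (log2 fold change 1.12, SE 0.35, limma adjusted p = 0.00908) and lower at the 8-cell stage (-1.62, SE 0.35, limma adjusted p = 0.00112). Both calls were lost in DESeq2 and with a pseudocount of 5, and the first also without array weights (0.98). The gene Nme7 lies over Atp1b1 on the opposite strand.

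Slc9a3r1, the scaffold NHERF1, was low at every stage and called once. The zygotes ran from 0 to 1.55 copies with a median of 0.454. The E2C embryos held 3.05, 1.24, 3.06, 2.14 and 3.77. The groups overlapped slightly, and the rise was 1.12 on the log2 scale (SE 0.29, limma adjusted p = 0.00509). All 10 E2C blastomeres carried a UMI, against 7 of 9 zygotes, and the zygotes were the deeper cells. The call was lost with a pseudocount of 5 (0.42) and in DESeq2, and in the isoform table summed per gene, which held only 1 of the 20 Slc9a3r1 UMIs of E2C, the change was -0.02.

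The L2C embryos held 0, 2.48, 4.93, 2.00, 6.27 and 0.875 copies of Slc9a3r1, and the 4-cell embryos 0.923, 0, 1.52, 0.602 and 1.87. At the 8-cell stage 3 embryos held 0 and 1 held 1.15. None of these steps was called. Later the gene was seen in 6 of 38 16-cell blastomeres, 5 of 22 32-cell blastomeres, 6 of 13 blastocyst cells and 3 of 5 mESC.

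Over all members 13 of the 34 isoforms passed the filter, and 6 of their 78 comparisons were called higher and 4 lower (7.69% and 5.13%), beside 3.93% and 3.88% over all isoforms and the same 6 steps. Isoform shares within genes could be tested for 3, 2, 2, 4, 2 and 3 member genes at the 6 transitions in order. Aqp8 and Slc9a3r1 were tested at none, Aqp3 only from 8-cell to 16-cell and Aqp11 only from L2C to 4-cell. Atp1b1 was tested only from oocyte to zygote and from L2C to 4-cell. The test called no member isoform, and its smallest gene-level adjusted p was 0.203, from E2C to L2C. Over all isoforms tested it called 0.00204% from oocyte to zygote, 0.237% from zygote to E2C and 1.6% from E2C to L2C. At the later steps it called 0.0109% from L2C to 4-cell, 0.0112% from 4-cell to 8-cell and 0.0% from 8-cell to 16-cell. The isoform table held 87.4% of the UMIs of Aqp11, 57.0% of Aqp3, 41.2% of Atp1b3, 38.1% of Aqp9, 31.6% of Atp1b1 and 28.7% of Slc9a3r1, against 69.4% over all genes, and neither of the 2 UMIs of Aqp8, so for 5 of the members most UMIs carried no listed isoform.

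The 4th run held other oocytes, and gene levels there are sums of isoform counts per 100,000. Atp1b3 had medians of 25.5 copies in 4 intact oocytes, 24.6 in 6 1/2 oocytes and 24.3 in 6 1/4 oocytes. Aqp9 had medians of 9.89, 12.0 and 8.18, and Atp1b1 of 1.54, 1.81 and 0.586. The table of this run lists no isoform of Aqp3, Aqp8 or Aqp11 and so gives no value for them. PB.77419.2 held 21.0% of the Atp1b3 isoform UMIs in intact oocytes, against 73.1% of those in oocytes of runs 1 to 3. The nearer end of Atp1b3 held 2.15% in intact, 0% in 1/2 and 2.41% in 1/4 oocytes.

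Of 62 other genes of ion and water transport, 53 stood in the table and 29 passed the filter. They were called higher and lower in 1 and 0 cases at the zygote, 2 and 2 at E2C, 3 and 6 at L2C, 1 and 0 at the 4-cell stage, 2 and 0 at the 8-cell stage and 0 and 2 at the 16-cell stage. At L2C that is 10.3% and 20.7% of them, beside the 25.6% and 22.8% of all genes, at E2C 6.90% each beside 4.52% and 2.75%, and at the 8-cell stage 6.90% and 0% beside 4.47% and 10.5%. At the zygote, 4-cell and 16-cell stages, where all genes gave 2.92% and 0.325%, 2.41% and 4.28%, and 1.9% and 1.46%, it is 3.45% and 0%, 3.45% and 0%, and 0% and 6.90%. The median log2 fold change of these 29 was -0.53 from E2C to L2C, beside 0.03 over all genes, and between -0.15 and 0.15 at the other steps. No aquaporin outside the 7 genes passed the filter.

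Slc12a2, the sodium-potassium-chloride cotransporter NKCC1, rose from 1.92 copies at E2C to 33.3 at L2C (log2 fold change 3.72, SE 0.39, limma adjusted p = 3.65e-12). It fell from 18.7 copies at the 8-cell stage to 5.05 at the 16-cell stage (-1.71, SE 0.40, limma adjusted p = 0.0108). Rdx, which encodes radixin, a linker of membrane proteins to actin, fell from 174 copies in zygotes to 28.5 at E2C (-2.56) and to 6.63 at L2C (-2.67). Slc9b1, a sodium-proton exchanger, rose at E2C (1.17) and fell at L2C (-2.14). Slc9a8, a sodium-proton exchanger of the Golgi, rose at L2C (1.51).

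Fxyd4, a small regulator of the Na,K-ATPase, was listed at 0 in all 4-cell embryos, held 2.18 copies at the 8-cell stage (log2 fold change 1.73, limma adjusted p = 0.000178) and 0.499 at the 16-cell stage (-1.31, adjusted p = 0.0178). Slc12a7, a potassium-chloride cotransporter, was lower at E2C (-1.01) and higher at the 8-cell stage (1.28, adjusted p = 0.0527). Slc12a4, of the same family, was higher at the 4-cell stage (1.18, limma adjusted p = 0.0411). Of the subunits of the vacuolar proton pump, Atp6v0d1 rose in zygotes (1.08) and Atp6v1a at E2C (1.10).

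The genes with stage means most like those of Aqp3, by Pearson's r of log2(mean + 1) over the 10 stages among 4275 genes, were Crip2, Tmbim4 and Khdc3, each at 0.98. For Aqp11 they were 1600025M17Rik, Gm13068 and Borcs6, each at 0.98, all near 0 outside L2C and the 4-cell stage. For Aqp9 they were Gtf2h3 (0.97), Tnfsf13b (0.96) and Fam118a (0.95), and for Atp1b3 Dnajc3 (0.93), Ing1 (0.92) and Spdl1 (0.90). For Atp1b1 they were Gclm (0.88), Ints3 (0.87) and Nid2 (0.87), and for Slc9a3r1 Tmpo (0.86), Wbp2 (0.85) and Ap1m1 (0.84). For Aqp8, with 2 UMIs in all, they were Rnf130 (0.76), AI662270 (0.75) and H2-D1 (0.71). The 10 points share their libraries, and these values are a description.

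Marker lists were summed in every cell as a check of the stage labels. The summed level of 10 trophectoderm markers had a median of 20.1 copies at 4-cell, 40.7 at 8-cell, 57.2 at 16-cell, 55.9 at 32-cell and 39.2 in the blastocyst. Cdx2 was at 0 in all cells up to the 4-cell stage. Other markers of that list were seen earlier, Tfap2c in all 10 oocytes and 9 zygotes, Gata3 in 9 of 10 oocytes and Tead4 in all 11 L2C blastomeres. The 6 inner cell markers had medians of 14.3 at 4-cell, 41.8 at 8-cell, 56.1 at 16-cell, 48.6 at 32-cell and 39.0 in the blastocyst. The 7 oocyte markers summed to 3070 to 4124 copies in oocytes, and to 87.4 to 180 copies in mESC, where 4 of them were detected. In 32-cell blastomeres, all of run 2, they summed to 6.29 to 52.9, and in blastocyst cells to 164 to 450 (median 272). Their medians were 2466 in zygotes, 687 at E2C, 105 at L2C, 206 at 4-cell, 110 at 8-cell and 199 at 16-cell. The 5 2-cell markers had medians of 11.5 in oocytes, 48.3 in zygotes, 48.5 at E2C, 4.41 at L2C and 2.74 at 4-cell. Of 8 cumulus cell markers 7 were in the table, and they summed to at most 1.52 copies in oocytes, with a median of 0 at E2C. At L2C they summed to 3.16 to 36.0 copies (median 13.2) and at the 4-cell stage to 5.48 to 44.1 (median 10.6), with medians of 3.41 at the 8-cell stage and 2.46 at the 16-cell stage. From the 4-cell to the 16-cell stage the sums are those of Amhr2 alone, and at L2C nearly so. Amhr2 encodes the receptor of anti-Müllerian hormone and was seen in all 11 L2C and all 17 4-cell blastomeres, while Has2, Tnfaip6, Ptgs2, Fshr and Inhba were at 0 in all cells from E2C on and Cyp11a1 was seen in 2 L2C cells and in no 4-cell, 8-cell or 16-cell blastomere. What part RNA from other cells has in the values of the members was not tested.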

How the data were processed

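The members and gene lists were chosen with earlier results of these data known. Consensus reads came from SMRT-Link, and scISA-Tools gave each its barcode and UMI. The authors aligned them to mm10 by minimap2 and matched them to gene models by gffcompare. Isoforms were built by cDNA_Cupcake, passed a SQANTI3 filter and had to occur in at least 5 cells. The authors deposited CPM-type values, in copies per 100,000 UMIs, and the columns recorded here as a score are deposited in the same unit. Gene values sum to 100000 per cell and isoform values to between 84419.2 and 97144.3. The 4th run was deposited as UMI counts of 49271 isoforms.

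In all cells 100% of non-zero values were whole multiples of 1 UMI (tolerance 0.1), and the recovered UMIs gave depths, pooled ratios and count tests. Nothing says that embryo numbers were not used again in another run, or that samples were independent beyond their names, so p-values measure the spread between these embryos. The column names give no run: for single oocytes and zygotes it was read from a supplementary table of the study that pairs each with a cell barcode ending in the library number, and for 32-cell, blastocyst and mESC cells from the stage, whose barcodes all end in 1 number. The unit being normalized, limma 3.58.1 (trend, array weights, pseudocount 1) in R 4.3.3 was the test. Isoform shares were tested with limma on arcsine square root shares in genes with isoform UMIs in at least 3 embryos of each stage (gene-level adjusted p under 0.01, isoform adjusted p under 0.05). Alternatives were edgeR 4.0.16 and DESeq2 1.42.0 on recovered UMIs, pseudocounts of 0.1 and 5, no filter beyond 1 UMI, no array weights, cells of at least 10000 UMIs, UMIs pooled over the cells of an embryo, calls at an adjusted p under 0.05, the isoform table summed per gene, and each embryo of the stages with 4 or 5 embryos left out in turn. Named are the 7 members, up to 2 of the transport genes called highest and lowest in each comparison, and the 3 genes most like each member. A gene of the transport list is not reported here by name. The scripts were tested on simulated counts. No doublet caller was run, since cells were picked singly. Python 3.11.15, numpy 2.4.6, pandas 2.3.3 and matplotlib 3.10.9 served for everything else. Promoters and transcripts came from RefSeq (GRCm38.p6) and the annotation of GRCm38, the build of mm10.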

Additional observations from a re-analysis of the deposited data

Results flagged for a closer look

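In 8 of 41 groups of 4 to 10 embryos, 1 embryo stood farther from the others than Dixon's 95% limit allows. Chance does this in about 1 of 20 groups of normally distributed values. Counts near 0 are not such values, since 1 UMI passes the limit where all other embryos held 0. The 8 of 41 can therefore not be set against that rate. The largest gap in copies was that of Aqp3 in 16-cell embryo 3, at 47.6 copies (47.588) where the next was 15.3, from 39 UMIs in 7 cells. Aqp3 in 8-cell embryo 4 was at 23.7 copies (23.657) with the next at 12.3, from 64 UMIs in 7 cells. Atp1b3 in E2C embryo 5 was at 12.9 copies (12.945) with the next at 5.55, from 14 UMIs in 2 cells. The other 5 rest on 1 to 3 UMIs each. They are Aqp3 in E2C embryo 1 (1.85 copies), Aqp8 in zygote 6 (0.31), Aqp11 in oocyte 3 (0.514), Aqp11 in 16-cell embryo 4 (3.262, 3.26 rounded) and Slc9a3r1 in 8-cell embryo 1 (1.155). All 8 are the highest embryo of their group.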

How the results depend on the processing

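Of the 9 gene calls, 5 kept their direction and stayed past the limits under all 28 alternatives: Aqp3 at the 8-cell stage, Aqp11 at L2C and at the 8-cell stage, and Atp1b3 at L2C and at the 8-cell stage. With a pseudocount of 5 the number of gene calls was 5, and it was 7 to 9 under every other alternative (8 to 9 with 1 embryo left out). The number of isoform calls was 10, and 5 with a pseudocount of 5, 5 in edgeR and 5 in DESeq2 on recovered UMIs, and 10 to 13 with 1 embryo left out. Slc9a3r1 from zygote to E2C turned to -0.019 in the isoform table summed per gene, where 1 E2C UMI was listed. The Atp1b3 fall at E2C was lost with a pseudocount of 5 alone (-0.91). No alternative called a share change in a member that it could test. With the run as a block no member was called between oocyte and zygote. The later steps, which hold all gene calls, could not be fitted in this way, since the run of their embryos was not known. Low UMI numbers limit the isoform shares and all values of Aqp8 and Slc9a3r1.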
